A study of Mus musculus with 5 samples.

Results

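The tail bud and axis extension genes examined here are 10 genes that act where the mouse body lengthens at its posterior end: Cdx1, Cdx2, Cdx4, Wnt3a, Wnt5a, Fgf8, Msgn1, Mesp2, Evx1 and Rspo3. They were chosen by name, as probe sets annotated to only one of these symbols, which gave 11 probe sets of 9 genes among 20380 probe sets of 12393 genes. Where a gene had more than 1 probe set, the one brightest on average on the log2(signal + 16) scale stood for it. No probe set was annotated to Rspo3, which encodes a secreted amplifier of WNT signalling, and it was not analysed here.

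Whole embryos (C57BL6J, gestation day 9.5) gave RNA that was hybridised to Affymetrix Mouse Genome 430A arrays, 3 for Folr1+/+ and 2 for Folr1-/- embryos. Folr1 encodes a receptor that carries folate into cells. The Folr1-/- embryos came from Folr1+/- parents, with the dams fed added folate before mating and through gestation. For the Folr1+/+ embryos no separate diet is named, and if theirs was another, its effect and that of the genotype cannot be told apart. Arrays are labelled as biological replicates, and whether each came from 1 embryo or several is not said.

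The vertebrate trunk and tail are laid down from head to tail by progenitors in the primitive streak and, later, in the tail bud. WNT3A and FGF8 keep these progenitors in place, the CDX homeodomain factors act with them and switch on posterior Hox genes, and mesoderm that leaves the bud passes through a presomitic state marked by MSGN1 before MESP2 sets the border of each new somite. Mice with too little Wnt3a or with mutant Cdx genes have truncated axes. Several of these genes also work elsewhere in the embryo: CDX1 and CDX2 mark the hindgut endoderm, CDX2 the trophoblast, and FGF8 the midbrain-hindbrain boundary and limb bud.

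Signals are MAS5 intensities on a linear scale. The arrays had median signals of 33.0 to 38.3 and correlated at 0.975 to 0.983 within the Folr1+/+ group, at 0.986 between the Folr1-/- arrays and at 0.954 to 0.969 between the groups (Pearson r of log2 signals across genes, which are not independent replicates). Genes of neural tube, somite, heart and primitive blood were present in the Folr1+/+ arrays. Of 9 such markers 8 fell in the Folr1-/- arrays, and their summed signal was 5581 to 6850 against 697 to 1335. All 7 markers of the yolk sac visceral endoderm rose, with summed signals of 1819 to 2678 against 13384 to 13575. Of all genes tested with limma, 6.79% passed as lower and 8.19% as higher at an adjusted p under 0.05. The Folr1 probe set had a log2 fold change of -0.07 ± 0.20 (SE), and since how far the targeted allele reaches is not stated in the sources used here, it does not check the labels. Xist, transcribed from the inactive X chromosome, ranged from 25.0 to 35.7 in Folr1+/+ and read 419 and 770.4 in Folr1-/-. If the groups differ in embryo sex, its effect and that of the genotype cannot be told apart in any gene here.

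The genes split. Cdx2 rose in the Folr1-/- arrays, Cdx1 had the largest difference in the same direction at a dim signal, Wnt3a lay lower without passing the test, and Cdx4, Evx1, Wnt5a, Fgf8, Msgn1 and Mesp2 had overlapping groups. Of the 9 genes on the array, 5 passed the filter on dim genes (the 40th percentile of mean log2 signal) and were tested with limma: Cdx2, Cdx4, Evx1, Wnt3a and Wnt5a. Of these 5 tested genes, 1 was higher and 0 lower at an adjusted p under 0.05, where 15.0% of all 7436 genes tested passed (8.19% of those tested as higher and 6.79% as lower). At an unadjusted p under 0.05 the count among the 5 was also 1, against 30.0% of all genes tested. With 1 of 5 genes, or 20.0%, the share lies near that background and is no result about these genes. The median log2 fold change of the 5 was 0.12, against -0.02 over all genes tested. The groups did not overlap in 3 of the 9 genes, 2 higher (Cdx1 and Cdx2) and 1 lower (Wnt3a), against 40.2% of all genes on the array, 16.8% higher and 23.3% lower. In bulk RNA, fewer cells of a type and less RNA per cell cannot be told apart.

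**Figure D1:**
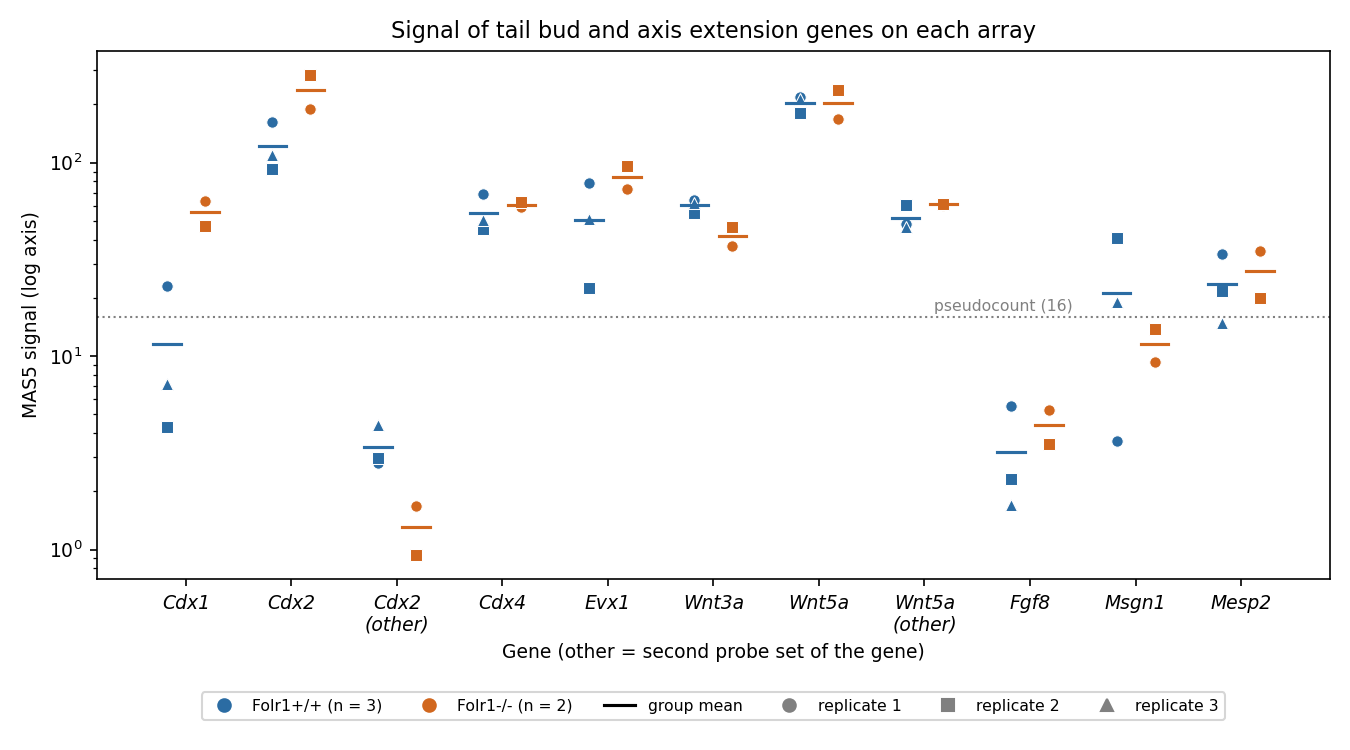
MAS5 signal (log axis) of the 11 probe sets of the 9 measured genes on each array, with Folr1+/+ in blue, Folr1-/- in orange, the replicate number as the marker shape and the group mean as a bar; the dotted line is the pseudocount of 16. Cdx1 and the brighter Cdx2 probe set are higher in both Folr1-/- arrays than in any Folr1+/+ array, and Wnt3a is lower in both.

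The caudal homeobox genes come first. Cdx2, a homeodomain factor of the tail bud, hindgut and trophoblast, had signals of 162, 92.8 and 109.6 in Folr1+/+ replicates 1, 2 and 3 and of 189.7 and 285 in Folr1-/- replicates 1 and 2. Both Folr1-/- arrays lie above all Folr1+/+ arrays, and Folr1+/+ replicate 1 comes closest to them. The group means were 122 ± 36.2 (SD, n = 3) and 237 ± 67.3 (SD, n = 2), a log2 fold change of 0.89 ± 0.23 (SE, Folr1-/- minus Folr1+/+ on the log2(signal + 16) scale) with a limma adjusted p of 0.025. The call was lost without Folr1+/+ replicate 2 (0.73, adjusted p = 0.064), without Folr1+/+ replicate 3 (0.84, adjusted p = 0.089) and without Folr1-/- replicate 2 (0.61, adjusted p = 0.231), and the adjusted p ranged from 0.0088 to 0.231 over 14 other settings. The second Cdx2 probe set was dim on every array, with signals of 2.80, 2.98 and 4.39 against 1.69 and 0.938. It lay lower in both Folr1-/- arrays, opposite to the brighter probe set, with a log2 fold change of -0.16 ± 0.12 and an adjusted p of 0.533 in a fit over all probe sets, where 4.20% passed.

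Cdx1, the CDX gene with roles in vertebral patterning and in intestinal endoderm, had signals of 23.1, 4.31 and 7.14 across the Folr1+/+ arrays, against 63.6 and 47.1 in the Folr1-/- arrays. The groups were well apart, although the Folr1+/+ arrays differed among themselves by 5.35-fold. Means were 11.5 ± 10.1 (SD, n = 3) and 55.3 ± 11.7 (SD, n = 2), and the log2 fold change was 1.43 ± 0.31 with a 95% interval of 0.72 to 2.13. Cdx1 fell under the filter and so was not tested in the main comparison. With no filter it passed (adjusted p = 0.034, where 6.03% of 12393 genes passed) while Cdx2 did not (adjusted p = 0.081). Its Folr1+/+ signals lie near or below the pseudocount, which sets the size of the value: the log2 fold change was 2.46 with a pseudocount of 1 and 0.67 with a pseudocount of 64.

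Cdx4, the X-linked CDX gene of the posterior embryo, did not follow this pattern. Its signals were 69.3, 45.6 and 50.4 in the Folr1+/+ arrays and 58.7 and 62.5 in the Folr1-/- arrays. Both Folr1-/- values fall inside the Folr1+/+ range. Its log2 fold change was 0.12 ± 0.21, with a 95% interval of -0.33 to 0.57 and an adjusted p of 0.731. The X-linked Xist separated the same arrays, and its part in the Cdx4 value was not tested.

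Markers of other tissues with CDX expression differed between the same arrays. Of 6 tested gut endoderm markers all 6 rose, where 8.19% of all genes tested did, with a median log2 fold change of 1.17. The largest values were those of Sox17 (1.85 ± 0.21) and Cdh1 (1.23 ± 0.25). With the mean of its probe sets Sox17 had 1.06 (limma adjusted p = 0.0027). The Shh probe set was dim on all arrays and had -0.02 ± 0.17. Without Folr1-/- replicate 1 the count was 4. The summed signal of the 7 gut endoderm markers was 805 to 964 in the Folr1+/+ and 2078 to 2388 in the Folr1-/- arrays. Markers of the yolk sac visceral endoderm rose further on the same arrays, with a median of 2.56. Whether gut or yolk sac endoderm gave the rise of the gut list was not tested. Of 3 tested trophoblast markers 2 rose, Plac1 at 1.30 ± 0.16 and Prl8a2 at 1.44 ± 0.38, while Tfap2c, at 0.16 ± 0.20, did not pass. Prl8a2 read 15.3, 13.6 and 23.2 against 143 and 34.6, so that the Folr1-/- arrays differ far more than the Folr1+/+ arrays. Prl8a2 reached the filter through its Folr1-/- signals. Its call was lost with no filter (adjusted p = 0.096) and without any one Folr1+/+ array (adjusted p of 0.052 to 0.055). Without Folr1-/- replicate 1 it had 0.61 and fell under the filter, which left Plac1 as the 1 marker that rose. The summed signal of the 6 trophoblast markers on the array was 254 to 263 against 495 to 529, and Elf5, Eomes and Tpbpa, all dim, had overlapping groups. None of these markers was listed at 0. Their part in the Cdx1 and Cdx2 differences was not tested.

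Evx1, a homeobox gene of the posterior streak and tail bud and of spinal interneurons, had signals of 78.5, 22.5 and 51.1 across the Folr1+/+ arrays, against 73.4 and 96.0 in the Folr1-/- arrays. The groups overlap, because Folr1+/+ replicate 1 exceeds Folr1-/- replicate 1, and the Folr1+/+ arrays span 3.49-fold. Means were 50.7 ± 28.0 (SD, n = 3) and 84.7 ± 15.9 (SD, n = 2). The log2 fold change was 0.68 ± 0.31, with a 95% interval of -0.0023 to 1.36 and an adjusted p of 0.168. Without Folr1+/+ replicate 1 it was 0.98 and passed (adjusted p = 0.041, range 0.041 to 0.506 over the settings that tested it), and without Folr1+/+ replicate 2 it was 0.33.

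Among the signalling ligands, Wnt3a lay lower in the Folr1-/- arrays, while the groups of Wnt5a and Fgf8 overlapped. Wnt3a, the canonical WNT ligand of the tail bud whose loss ends axis extension, had signals of 64.4, 55.0 and 62.1 across the Folr1+/+ arrays, against 37.0 and 46.8 in the Folr1-/- arrays. Both Folr1-/- arrays are below all Folr1+/+ arrays, with means of 60.5 ± 4.89 (SD, n = 3) and 41.9 ± 6.88 (SD, n = 2). Its log2 fold change was -0.40 ± 0.19, with a 95% interval of -0.83 to 0.019 and an adjusted p of 0.186, so the difference did not pass. It was negative in all 14 other settings, between -0.53 and -0.23, and passed in 0 of them.

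Wnt5a, a ligand that steers cell polarity and elongation movements through ROR2, had signals of 219, 181 and 213 against 168 and 238. The Folr1-/- arrays were the lowest and the highest of the 5. The log2 fold change was -0.02 ± 0.18, with a 95% interval of -0.43 to 0.38 and an adjusted p of 0.943. A second Wnt5a probe set had signals of 48.0, 60.2 and 46.3 against 60.5 and 61.4, both Folr1-/- arrays just above Folr1+/+ replicate 2, with a log2 fold change of 0.19 ± 0.20 and an adjusted p of 0.655 in the fit over all probe sets.

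Fgf8, the FGF ligand that holds tail bud cells in an undifferentiated state, was dim on every array and fell under the filter. Its signals were 5.55, 2.30 and 1.70 against 5.30 and 3.51, all below the pseudocount, and the groups overlap. Its log2 fold change was 0.09 ± 0.16, with a 95% interval of -0.27 to 0.45 on a scale that understates changes at such signals. Markers of another site of Fgf8 expression, the midbrain-hindbrain boundary, had summed signals of 87.3 to 126.7 in the Folr1+/+ and 31.2 to 36.6 in the Folr1-/- arrays. Of these 4 markers only Wnt1 was tested, at -0.85 ± 0.30 (adjusted p = 0.076), and it passed without Folr1+/+ replicate 2 (-1.14, adjusted p = 0.011). Wnt1 reached the filter through its Folr1+/+ signals. The 5 limb bud markers did not move together: 3 were positive and 2 negative, with a median log2 fold change of 0.037. Prrx1, the only one tested, had signals of 152, 172 and 189 against 53.2 and 61.3 and passed as lower (-1.35 ± 0.18). With the mean of its probe sets Prrx1 had -0.58 and fell under the filter. Tbx5, under the filter, had 23.9, 8.35 and 28.9 against 70.2 and 30.3, with both Folr1-/- arrays the highest. The summed signal of the 5, to which Prrx1 gives the most, was 205 to 236 against 121 to 154. The part of these tissues in the Fgf8 value was not tested.

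The presomitic factors were near the pseudocount as well. Msgn1, a basic helix-loop-helix factor that drives tail bud cells into presomitic mesoderm, had signals of 3.62, 40.9 and 19.0 across the Folr1+/+ arrays, against 9.32 and 13.8 in the Folr1-/- arrays. The Folr1+/+ arrays span 11.3-fold and enclose both Folr1-/- arrays. The log2 fold change was -0.30 ± 0.40 (95% interval -1.21 to 0.60), and its direction rests on single arrays: it came to 0.069 with Folr1+/+ replicate 2 left out and to -0.70 with Folr1+/+ replicate 1 left out.

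Mesp2, the factor that positions the somite border, had signals of 33.9, 21.7 and 14.8 across the Folr1+/+ arrays, against 35.0 and 20.1 in the Folr1-/- arrays. The ranges nearly coincide. Its log2 fold change was 0.15 ± 0.28, with a 95% interval of -0.48 to 0.78, and was -0.10 without Folr1-/- replicate 1. Msgn1 and Mesp2 were both under the filter and were not tested in the main comparison.

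**Figure D2:**
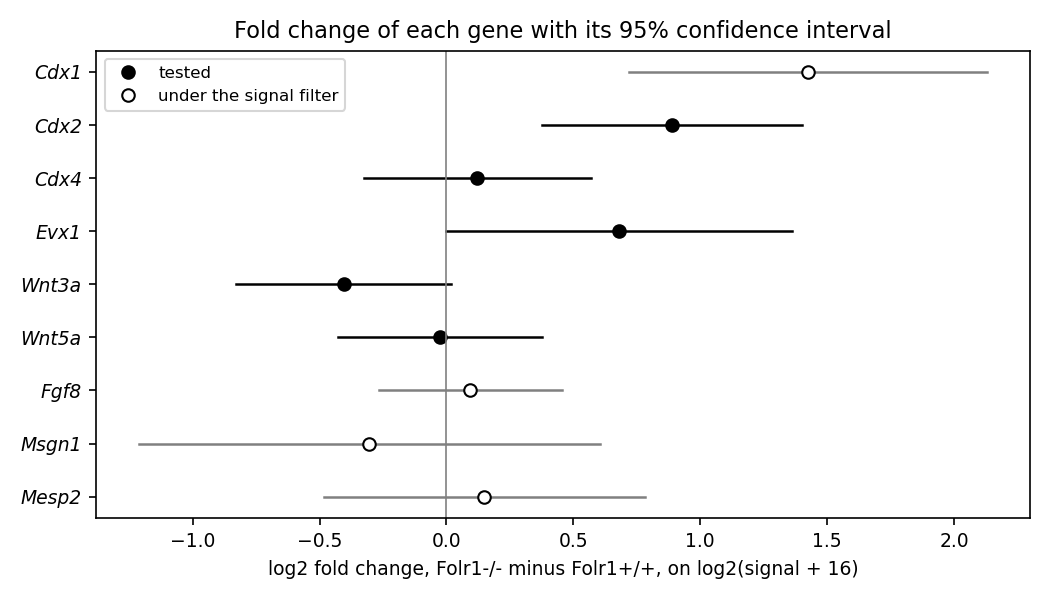
Log2 fold change of each of the 9 measured genes, Folr1-/- minus Folr1+/+ on log2(signal + 16), with its 95% confidence interval from limma; filled points are tested genes and open points are genes under the signal filter. The intervals of Cdx1 (0.72 to 2.13) and Cdx2 lie above 0, and those of the other 7 genes include 0.

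The Folr1+/+ arrays were not alike in these genes. Folr1+/+ replicate 1 had the highest signal of its group in 8 of the 9 genes, Msgn1 being the exception. It was the highest in 32.8% of all genes tested, a set that leaves out the 4 dim members. Folr1+/+ replicate 2 had the lowest in 6 of the 9, for which no share over all genes was computed. Leaving out Folr1+/+ replicate 1 raised the log2 fold change of Cdx1 to 1.71 and of Cdx2 to 1.09, and gave 2 genes past the threshold, Cdx2 and Evx1. Without Folr1+/+ replicate 3 or without Folr1-/- replicate 2, 0 passed. Without Folr1+/+ replicate 2, Cdx1 passed the filter and the test (1.24, adjusted p = 0.014). It reached the filter there through its Folr1-/- signals, which favours a call as higher. Cdx2 no longer passed in that fit, so the count stayed at 1 with another gene. The 3'/5' signal ratio of Actb, a measure of RNA integrity, was 21.1 in Folr1+/+ replicate 1 and 39.5 in Folr1+/+ replicate 2, 29.1 in Folr1+/+ replicate 3 and 30.5 and 22.8 in the Folr1-/- arrays. Its part in these values was not tested.

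**Figure D3:**
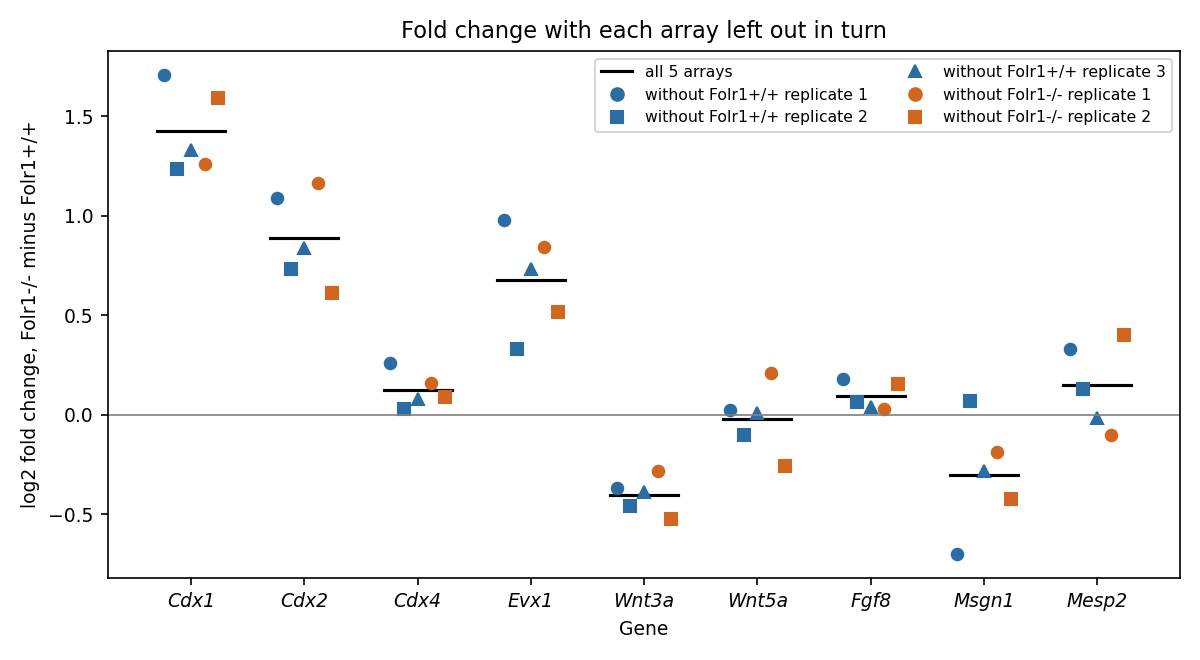
Log2 fold change of each of the 9 genes with all 5 arrays (black bar) and with each array left out in turn (points, blue for a Folr1+/+ array and orange for a Folr1-/- array). Cdx1, Cdx2 and Evx1 stay above 0 and Wnt3a below 0 in every case, while Wnt5a, Msgn1 and Mesp2 fall on both sides of 0.

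The sequences just before the transcription start are shown for 4 genes. Cdx2 and Wnt3a are the genes with a promoter searched here whose groups did not overlap. Evx1 and Msgn1 are the genes in which a searched motif was found. They are RefSeq promoters of build GRCm38.p6, 250 bases each, 5' to 3' on the gene's strand. Promoters of 6 of the 10 genes were searched. Both strands were searched for the TCF/LEF word CTTTGAA and its variants that end in AT, TA or TT, for the CDX word TTTATGG and its variant that ends in TG, and for the T-box word TCACACC. No matches overlap here. Capitals mark a match, which reads as the reverse complement of the word where it lies on the opposite strand. The windows are chr5:147307250-147307499 on the minus strand for Cdx2, chr11:59290752-59291001 on the minus strand for Wnt3a, chr6:52313248-52313497 on the plus strand for Evx1 and chr12:11208949-11209198 on the minus strand for Msgn1.
Cdx2: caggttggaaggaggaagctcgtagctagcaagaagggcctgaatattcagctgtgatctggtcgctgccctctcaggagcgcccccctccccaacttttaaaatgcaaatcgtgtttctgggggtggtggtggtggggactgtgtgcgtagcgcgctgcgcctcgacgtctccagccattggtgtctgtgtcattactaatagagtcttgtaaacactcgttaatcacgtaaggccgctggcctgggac
Wnt3a: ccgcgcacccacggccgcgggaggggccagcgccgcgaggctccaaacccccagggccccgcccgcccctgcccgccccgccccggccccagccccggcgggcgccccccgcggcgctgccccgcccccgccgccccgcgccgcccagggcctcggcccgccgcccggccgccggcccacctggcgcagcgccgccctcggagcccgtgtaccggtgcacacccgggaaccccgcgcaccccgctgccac
Evx1: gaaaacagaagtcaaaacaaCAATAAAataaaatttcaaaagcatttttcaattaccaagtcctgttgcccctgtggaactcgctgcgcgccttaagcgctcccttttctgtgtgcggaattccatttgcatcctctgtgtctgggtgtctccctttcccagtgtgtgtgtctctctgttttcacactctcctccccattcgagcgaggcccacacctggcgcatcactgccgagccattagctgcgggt
Msgn1: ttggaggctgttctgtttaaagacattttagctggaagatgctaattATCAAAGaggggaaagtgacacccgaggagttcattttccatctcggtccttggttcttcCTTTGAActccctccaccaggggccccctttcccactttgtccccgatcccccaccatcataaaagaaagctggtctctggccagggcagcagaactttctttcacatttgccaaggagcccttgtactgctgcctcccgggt

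Msgn1 held 2 TCF/LEF words, which begin 203 and 143 bases before the start, and 14.8% of 32851 RefSeq promoter windows of the same length held at least 1. Evx1 held 1 CDX word, which begins 230 bases before the start, against 6.51% of windows. The T-box word was found in none of the 6 windows and in 3.33% of all windows. Cdx2, Wnt3a, Cdx4 and Mesp2 held none of these words in this window. The promoters of Cdx1, Wnt5a, Fgf8 and Rspo3 were not searched, although the groups of Cdx1 did not overlap either. GC content was 87.6% for Wnt3a and 48.4% to 57.6% for the other 5.

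Genes that act with these members were taken from 6 lists, which share no gene with the 10. The lists, like the members, were drawn up with earlier results of these data known. As background for the list counts, 8.19% of all genes tested passed as higher and 6.79% as lower with limma. An unadjusted limma p under 0.05 was reached by 30.0%. Genes of the primitive streak and of neuromesodermal progenitors went both ways: of 5 tested, 3 rose, 1 fell and 1 did not pass, with a median log2 fold change of 0.54 against -0.02 over all genes tested. Of all 9 on the array 5 were positive and 4 negative, and of the 4 under the filter Wnt3, Gsc and Gdf11 were negative and Wnt8a positive. Mixl1, a streak homeobox gene, rose by 0.79 ± 0.22, Cyp26a1, whose enzyme clears retinoic acid from the tail bud, by 0.67 ± 0.17, and Nkx1-2, a homeobox gene of the progenitors, by 0.54 ± 0.17. Greb1 had -0.78 ± 0.19. These calls depend on single arrays: 0 genes rose without Folr1+/+ replicate 3, Folr1-/- replicate 1 or Folr1-/- replicate 2, 1 rose without Folr1+/+ replicate 2, and Greb1 was lost without Folr1+/+ replicate 3 or Folr1-/- replicate 1. With no filter 1 of 9 rose (Cyp26a1, adjusted p = 0.044) and 1 fell, while Mixl1 (adjusted p = 0.093) and Nkx1-2 (adjusted p = 0.082) did not pass. With the mean of its probe sets Nkx1-2 had 0.067.

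Genes of the presomitic clock and somite border went down. Markers of neural tube, somite, heart and primitive blood, with Tcf15 in both lists, fell further (8 of 9, median -1.55). Among 9 tested presomitic and somite border genes, 7 fell, 2 did not pass and 0 rose. Of all genes tested, 6.79% passed as lower and 8.19% as higher. The median of the 9 was -0.92, and 3 more were under the filter. The largest changes were those of Meox1, a homeobox gene of the somite, at -1.66 ± 0.32, Tcf15, a factor of epithelial somites, at -1.50 ± 0.18, the Notch ligand gene Dll1 at -1.44 ± 0.17 and the receptor gene Notch1 at -0.97 ± 0.21. With the mean of its probe sets Notch1 had -0.58 (limma adjusted p = 0.040), and without Folr1-/- replicate 1 it had -0.61. Tbx6, which acts beside Msgn1 in presomitic mesoderm, had -0.24 ± 0.21 and did not pass. The count of lower genes was 3 without Folr1-/- replicate 1 and 6 or 7 without any other array.

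Trunk and posterior Hox genes include targets of CDX factors. Of 11 tested, 2 rose, 1 fell and 8 did not pass, where 8.19% of all genes tested passed as higher and 6.79% as lower. So few calls are no result about the list. The median of the 11 was -0.21, and 8 more were under the filter. Hoxd9 rose by 1.02 ± 0.23 and Hoxa10 by 0.96 ± 0.24, while Hoxa9 had -0.62 ± 0.15. Hoxa10 read 18.3, 31.3 and 17.6 against 46.7 and 70.9, and it reached the filter through its Folr1-/- signals, which favours a call as higher. It fell under the filter without Folr1-/- replicate 2. The calls of Hoxd9 and Hoxa10 were lost without either Folr1-/- array, and that of Hoxa10 also without Folr1+/+ replicate 3. That of Hoxa9 was lost without Folr1-/- replicate 1 or Folr1+/+ replicate 3. With the mean of each gene's probe sets 4 of 12 rose and 0 fell, Hoxa9 having -0.43 (adjusted p = 0.073). With no filter 1 of 19 rose (Hoxd9, adjusted p = 0.047) and 2 fell (Hoxa9, adjusted p = 0.038, and Hoxc9, adjusted p = 0.031). Over the tested genes the median came to 0.39, 0.24 and 0.12 without Folr1+/+ replicates 1, 2 and 3, so its sign is not fixed.

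The list of receptors and targets of WNT and R-spondin ligands, through which Wnt3a and Rspo3 act, also holds the WNT secretion genes Porcn and Wls. It gave 0 calls with limma in 5 tested genes, where 15.0% of all genes tested passed, and a median of -0.28. An unadjusted p under 0.05 was reached by 30.0% of all genes tested and by 2 of these 5. Those 2 were the co-receptor gene Lrp6, at -0.44 ± 0.17 (adjusted p = 0.103), and Porcn, needed for WNT secretion, at -0.47 ± 0.19 (adjusted p = 0.117). Axin2, a common target of canonical WNT signalling, had -0.28 ± 0.16 (adjusted p = 0.260). Wls went the other way, at 0.33 ± 0.17 (adjusted p = 0.212). Of all 10 genes of this list on the array, 3 were positive and 7 negative. Among 7 tested receptors and polarity partners of WNT5A, the receptor gene Ryk rose by 0.56 ± 0.17, Fzd2 had -0.52 ± 0.16 and passed as lower, and 5 did not pass, with a median of -0.09. Ryk did not pass in any of the 5 fits that left out an array, Fzd2 passed only in the one without Folr1+/+ replicate 1, and centring each array on its median ended the call of Fzd2 as well (-0.43). Over all 14 other settings Ryk passed in 4 and Fzd2 in 5, and with no filter 0 of 8 genes passed. Among FGF ligands, receptor and feedback genes, 0 of 5 passed with limma, 1 of them at an unadjusted p under 0.05, with a median of 0.05. That was Dusp6, a feedback phosphatase gene of FGF signalling, at -0.50 ± 0.17 (adjusted p = 0.068), which passed without Folr1+/+ replicate 2 (-0.60, adjusted p = 0.047). Spry2, another feedback gene, had -0.23 ± 0.24.

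**Figure D4:**
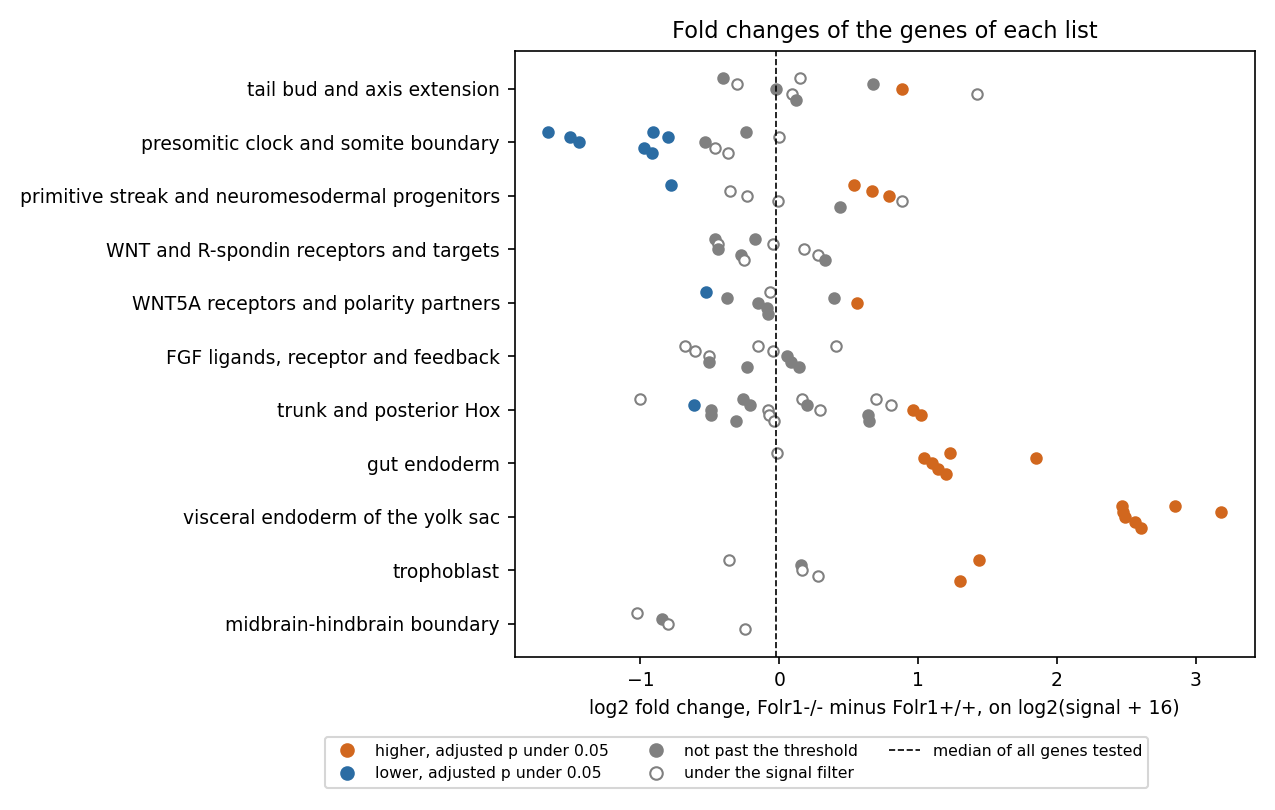
Log2 fold change of each gene of 11 lists, Folr1-/- minus Folr1+/+ on log2(signal + 16), as 1 point per gene; orange and blue points passed as higher and lower, grey points did not pass, open points were under the signal filter, and the dashed line is the median of all genes tested (-0.02). The members in the top row lie on both sides of that line, most genes of the presomitic list lie left of it, and the endoderm markers lie to the right.

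The genes most like Cdx2 over the 5 arrays, each centred on its own mean log2 value, were Efr3a, Tspan12 and Nodal, at root mean square distances of 0.137, 0.139 and 0.140. Their log2 fold changes were 0.79, 0.91 and 0.68, with limma adjusted p values of 0.014, 0.033 and 0.072. Since these genes were picked by likeness on the same arrays, values near that of Cdx2 follow from the choice. Nodal encodes a ligand of the early streak and node.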

How the data were processed

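The authors deposited linear MAS5 intensities from 1-colour arrays with a biotin label, per the submitters' processing notes and the labels, with no MAS5 version named. RNA was amplified in 2 rounds, per the labels' protocols, which favours 3' ends. The authors' scaling gave every array a trimmed mean (2% cut from both ends) of 150.06 to 150.07 and was kept. Detection calls were not used here. Of 22690 probe sets, 64 were controls, 691 had several symbols and 1555 were not listed in the platform annotation.

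The test was limma 3.58.1 (R 4.3.3; lmFit and eBayes with an intensity trend) on log2(signal + 16), with 1 probe set per gene and Benjamini-Hochberg adjustment over the 7436 genes at or above the 40th percentile of mean log2 signal, a threshold of 0.05 and 3 residual degrees of freedom. Values of genes under the filter come from the same fit with no filter. Each p-value sets a group difference against the gene's spread within the groups. In eBayes that spread is drawn towards the intensity trend over all genes of the fit, so it does not rest on the 3 residual degrees of freedom alone. With only 3 Folr1+/+ and 2 Folr1-/- arrays, the p-values remain imprecise. The code was tested on simulated arrays. The members and lists were chosen with earlier results of these data known. The text names all members, at most 4 genes past the threshold per pathway list (or else the 2 with the smallest unadjusted p), up to 3 examples per marker list by size of change, and the 3 genes nearest to a member past the threshold. Tbx6, Axin2, Wls, some dim genes and markers and the genes of the closing part were named after their values were seen. Alternatives covered pseudocount, filter, scaling, trend, probe set choice, the replicate number as a block and each array left out.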

Additional observations from a re-analysis of the deposited data

How the results depend on the processing

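The direction of Cdx1, Cdx2, Cdx4, Evx1, Fgf8 and Wnt3a was the same in all 14 other settings, and Cdx2 passed the threshold in 9 of them. It did not pass with no filter (log2 fold change 0.89) or with the mean of its probe sets (0.36), where 0 members were higher. Cdx1 was tested and passed with no filter (1.43). Leaving out each array in turn gave 0 to 2 members higher, 367 to 1023 genes past the threshold, and log2 fold changes of 1.24 to 1.71 for Cdx1, 0.61 to 1.16 for Cdx2, 0.33 to 0.98 for Evx1, -0.70 to 0.069 for Msgn1, -0.10 to 0.40 for Mesp2 and -0.26 to 0.21 for Wnt5a. Of 1114 genes past the threshold with all arrays, 609 were higher and 505 lower; with each array centred on its median 769 were higher and 341 lower. That centring gave Wnt5a 0.067, the mean of its probe sets gave 0.085, so that its sign is not settled. The same replicate numbers do not show pairing: deviations from the group means correlated at 0.019 and -0.056 across genes for numbers 1 and 2. With the replicate number as a block 899 genes passed, Cdx2 had 0.84 (adjusted p = 0.032), Wnt5a 0.0058 and Mesp2 -0.016, and 1 of 5 streak genes rose; these fold changes equal those without Folr1+/+ replicate 3, which has no partner. Signals near the pseudocount (Cdx1 in Folr1+/+, Fgf8, Msgn1, Mesp2) limit what can be read from these genes. Apart from the settings that leave out arrays, the causes of these shifts were not tested.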

Other observations

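Among 27 genes of the 6 pathway lists that were under the filter on dim genes and not tested, the groups did not overlap in 12, of which 4 were higher and 8 lower in Folr1-/-. They are named after their values were seen. The share is 44.4% (14.8% higher and 29.6% lower), against 30.3% of all 4957 genes under the filter (8.33% higher and 22.0% lower). The 4 higher were Wnt8a, Hoxa7, Hoxd10 and Rnf43. Wnt8a, a WNT ligand of the streak, read 2.79, 22.2 and 14.5 in Folr1+/+, against 34.2 and 37.1 in Folr1-/-. Hoxa7 had 6.79, 3.13 and 6.16 against 30.2 and 14.0, and Hoxd10 had 20.6, 18.6 and 24.9 against 40.8 and 48.0. The 8 lower were Hoxc9, Fgf18, Fgf17, Tbx18, Lgr6, Uncx, Gsc and Etv5. Hoxc9 had 27.7, 29.1 and 38.9 against 9.21 and 6.37. The FGF ligand gene Fgf18 had 35.9, 24.3 and 22.9 against 6.68 and 16.4. Signals of Rnf43, Tbx18 and Uncx were below the pseudocount of 16 on all arrays.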
